A study of Mus musculus with 4 samples.

Results

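The Id genes (inhibitor of DNA binding) form a family of 4 members in the mouse, *Id1*, *Id2*, *Id3* and *Id4*, and the data described here are the accessible chromatin regions around them. The members were taken by name, 4 of the 22350 protein-coding genes of the annotation (GENCODE vM1 on mouse build mm9). Around each gene a window was drawn that ran from 50 kb before its start to 50 kb past its end, and every region that overlapped the window was taken, together with those within 1000 bp of a transcription start site (TSS) of the member. This gave 15 of 19648 regions of the vehicle list, 20 of 38532 of the TGFβ list and 22 of 26732 of the 10 min list.

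The cells were NMuMG, an established epithelial line from normal mouse mammary gland. In complete medium, 1 sample received vehicle, a solution of HCl and bovine serum albumin (another label writes Tris-HCl), and 1 received 5 ng/ml TGFβ1, each over 2 h. In the other experiment cells were first kept 6 h without serum and insulin, and 1 sample then received vehicle and 1 received 5 ng/ml TGFβ1, each over 10 min. Each of the 4 groups held 1 sample. Accessibility was measured by ATAC-seq, in which the transposase Tn5 cuts and tags DNA that is not covered by nucleosomes, and it was deposited as lists of peaks. There were 3 lists, 1 for vehicle and 1 for TGFβ after 2 h, and 1 for the 10 min experiment, which the labels give to both samples of that experiment. The name of that list refers to TGFβ at 10 min alone, so the libraries behind it are not settled. It was therefore given to no single treatment, and vehicle and TGFβ were compared at 2 h only. For the TGFβ sample of the 10 min experiment a characteristics field gives 2 h while the title gives 10 min, and the title was followed.

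Id proteins carry a helix-loop-helix domain but no basic region, so they pair with E proteins and other basic helix-loop-helix factors and keep them from binding their DNA site, the E box. They are known for holding cells in a proliferating or undifferentiated state. *Id1* is a textbook direct target of BMP signalling, and a BMP-responsive element with GC-rich SMAD sites has been mapped in the DNA upstream of its promoter. TGFβ itself is known to lower Id transcripts in epithelial cells, in part through SMAD3 together with the repressor ATF3. Transcripts were not measured in these lists.

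No group had a replicate list and the lists carry no read counts, so the values describe these lists, no test between conditions was possible, and the 95% Wilson intervals given with shares cover the counting of regions only. The TGFβ list was longer than the vehicle list, with 49585 against 23070 distinct intervals, and what part of a difference at a gene comes from that was not tested. Start-site regions at epithelial marker genes were listed for *Krt8*, *Krt18*, *Krt19* and *Grhl2* in all 3 lists, while 6 of 12 such genes, among them *Epcam* and *Cldn7*, had none in any list, *Cldn4* had one in the TGFβ list alone and *Cdh1* in the 10 min list alone. None of 3 basal and none of 3 adipocyte markers had a start-site region. Of the fibroblast markers 1 of 5 had one in every list (*Col1a1*), and 1 of 4 endothelial (*Kdr*) and 1 of 4 immune markers (*Cd68*) had one in the TGFβ list.

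All 4 Id genes had an accessible region at a start site in each of the 3 lists. Over all protein-coding genes a start-site region was listed for 41.0% with vehicle, for 47.6% with TGFβ and for 46.3% in the 10 min experiment, and 39.9% had one in all 3 lists. Around the promoters the counts of the members differed in direction between vehicle and TGFβ. *Id1* had 3 regions with vehicle, 6 with TGFβ and 8 in the 10 min list. *Id3* had 4, 7 and 6 regions in the same order, and *Id4* had 2, 3 and 3. *Id2* alone of the 4 had fewer regions with TGFβ than with vehicle, 4 against 6, and it had 5 in the 10 min list.

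Of the 16475 genes with a vehicle region in their window, 2.72% had fewer regions in the TGFβ list, as *Id2* did, and 76.8% had more, as the other members did. At 30 genes, or 0.182%, in 19 separate loci, the TGFβ list held at least 2 regions fewer, and *Id2* was among them. Of the 800 genes that, like *Id2*, had 6 vehicle regions, 0.875% had 4 or fewer in the TGFβ list. The median gene had 2 vehicle and 3 TGFβ regions, and a median difference of 1. These directions depend on how the lists are set side by side. When the TGFβ list was shortened by score to the length of the vehicle list, the difference (TGFβ minus vehicle) was -1 at *Id1*, -2 at *Id3* and 0 at *Id4*. At *Id2* it was -2 by construction, since its 4 TGFβ regions all had the highest score of 1000 and could not be removed. When each list was reduced to peaks at or above its own median score, *Id2* had 3 more regions with TGFβ than with vehicle and *Id1* had a difference of -1.

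**Figure D1:**
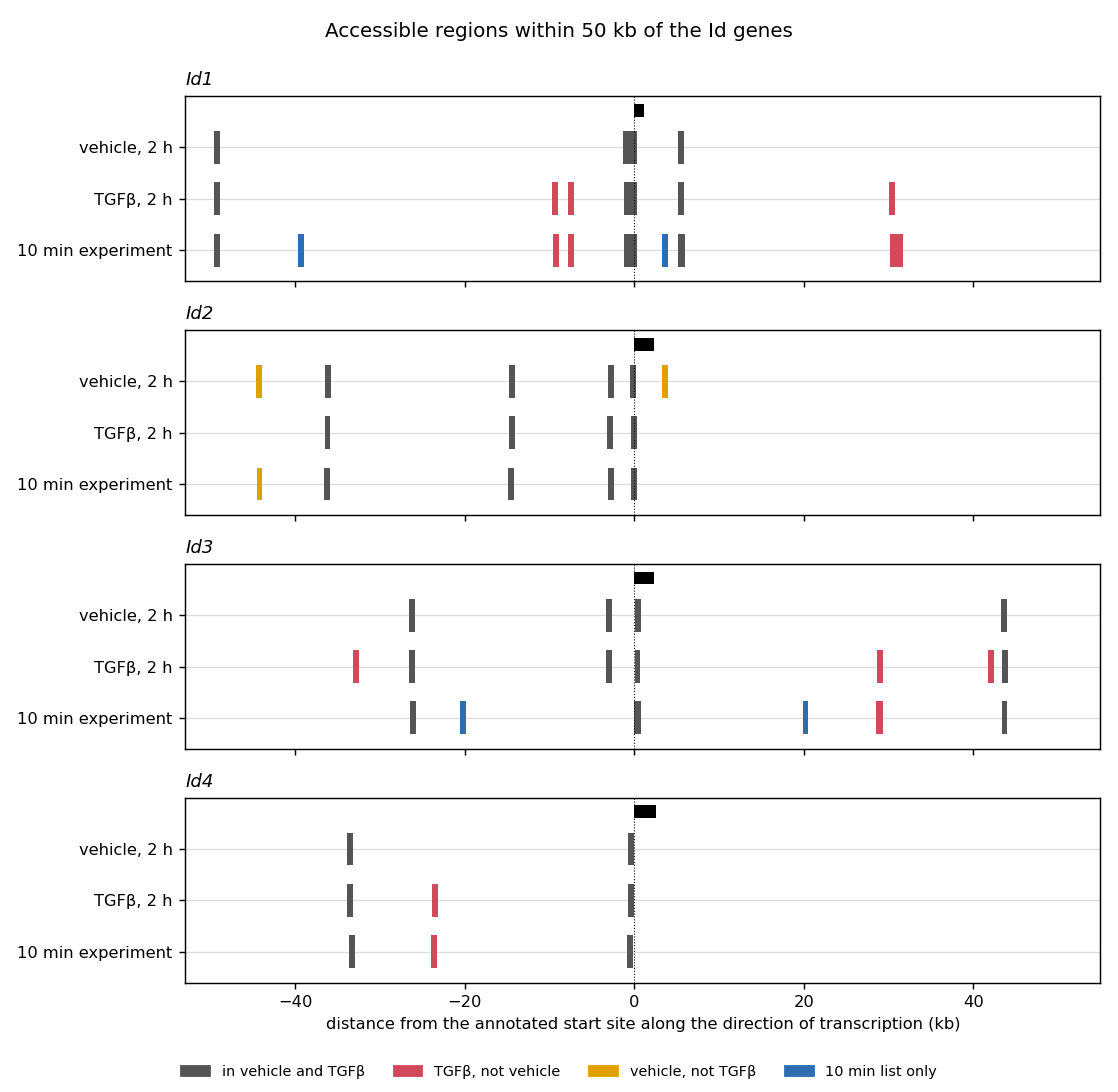
Regions of the 3 lists around each Id gene, against the distance in kb from the annotated start site in the direction of transcription (black bar, the gene; dotted line, its first start site; regions narrower than 0.7 kb are drawn 0.7 kb wide). Grey regions are in both 2 h lists, red ones in the TGFβ but not the vehicle list, yellow ones in the vehicle but not the TGFβ list, and blue ones in the 10 min list alone; *Id2* is the member with yellow regions, 2 of them, and it has no red one.

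**Figure D2:**
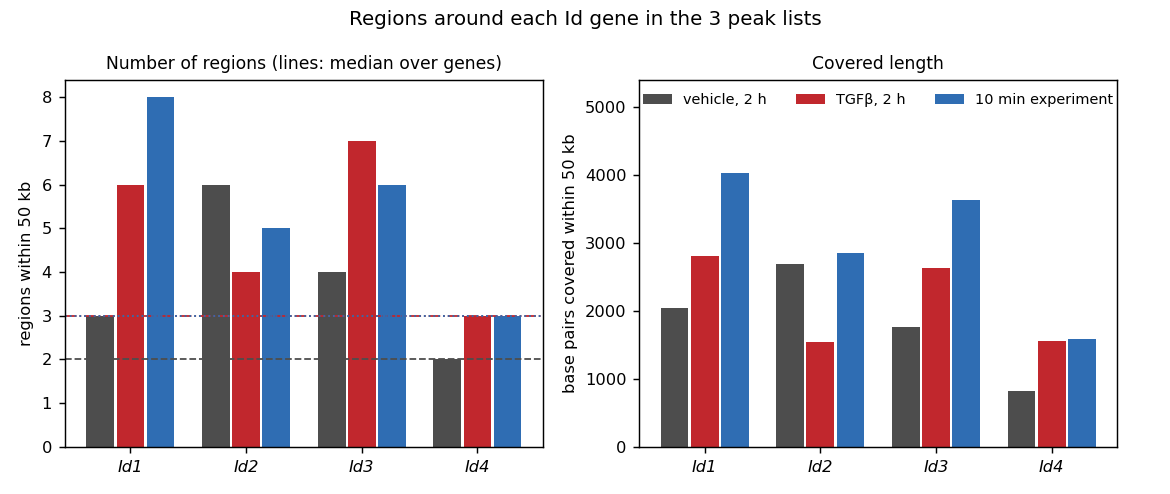
Number of regions (left) and base pairs covered by them (right) in the window of each member for the vehicle, TGFβ and 10 min lists, 1 list per bar and no replicates; the horizontal lines mark the median over 22350 genes, 2 for vehicle and 3 for both other lists. *Id2* has 6 vehicle and 4 TGFβ regions, and *Id1* has 3 and 6.

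**Figure D3:**
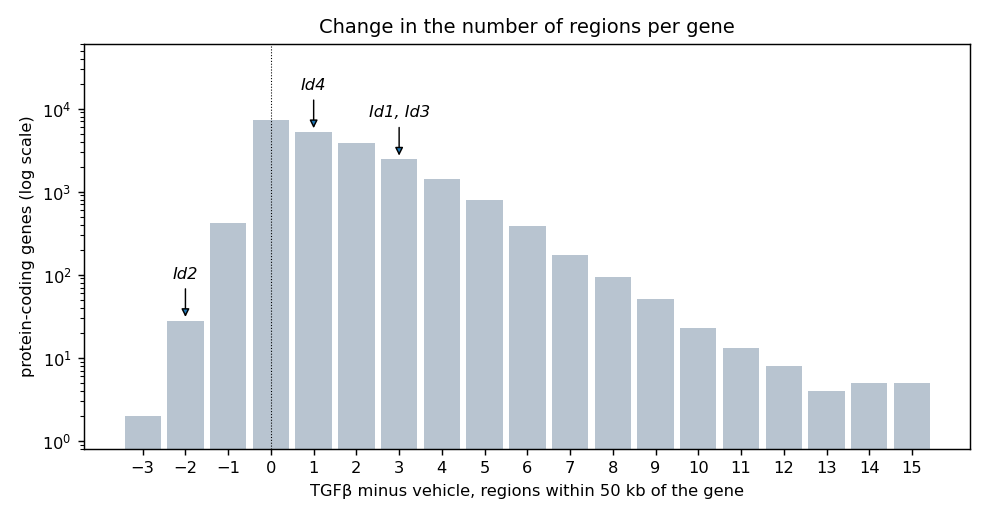
Number of protein-coding genes, on a log scale, by the difference in window regions between the TGFβ and the vehicle list; arrows mark the Id genes and 5 genes above 15 are not drawn. *Id2* stands at -2, left of zero with 30 genes at -2 or below, *Id4* at 1, and *Id1* and *Id3* at 3.

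*Id1* lies on chromosome 2 (ENSMUSG00000042745.9, chr2:152561987-152563146, plus strand). Its start-site region was 1700 bp wide in the vehicle, 1558 bp in the TGFβ and 1529 bp in the 10 min list, and its score was at the cap of 1000 in each. The score is the authors' scaled irreproducible discovery rate, and 1000 is its cap, given to the lowest rates. The region was made of 2 deposited intervals with a gap between them. The promoter interval ran from 174 bp upstream to 347 bp downstream of the start site in the vehicle list and from 174 bp upstream to 326 bp downstream in the TGFβ list. The second interval lay further upstream, from 1352 to 930 bp before the start site with vehicle, from 1231 to 931 bp with TGFβ and from 1250 to 931 bp in the 10 min list, with scores of 838, 1000 and 824. Both pieces of the *Id1* upstream DNA were thus in all 3 lists, and the upstream interval was narrower in the TGFβ than in the vehicle list, at 301 against 423 bp.

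The upstream interval is shown because it lies where the BMP-responsive element of *Id1* is known to sit. The stretch printed is chr2:152560757-152561056 (mm9, plus strand), 300 bp common to the 3 lists, and for comparison the 250 bp before the start site are given (chr2:152561737-152561986). Capitals mark the words that were searched on both strands: TGACTCA for AP-1, CAGACA or GTCTAGAC for SMAD factors, GGCGCC for GC-rich SMAD sites, CCGGAAG for ETS factors, TGACGTCA for the cAMP response element (CRE), and CAGCTG or CAGGTG for the E box. No word searched contains another, and a match is a property of the sequence alone.
Id1 upstream element: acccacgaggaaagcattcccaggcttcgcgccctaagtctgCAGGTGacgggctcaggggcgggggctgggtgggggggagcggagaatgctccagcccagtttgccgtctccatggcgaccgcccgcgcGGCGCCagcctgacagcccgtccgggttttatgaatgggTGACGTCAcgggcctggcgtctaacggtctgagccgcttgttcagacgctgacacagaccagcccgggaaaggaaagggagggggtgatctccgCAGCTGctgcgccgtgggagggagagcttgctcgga
Id1 promoter: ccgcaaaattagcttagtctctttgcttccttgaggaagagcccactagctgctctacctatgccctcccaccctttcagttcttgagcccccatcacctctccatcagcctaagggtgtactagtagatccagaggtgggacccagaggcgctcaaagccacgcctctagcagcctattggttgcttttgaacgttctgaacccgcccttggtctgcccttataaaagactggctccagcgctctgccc
The upstream element held GGCGCC at 1099 bp and TGACGTCA at 1060 bp before the start site, between an E box at 1188 bp and another at 966 bp. Within 200 bp of the centre of all 44064 TGFβ intervals of at least 150 bp, GGCGCC was found in 11.3% and TGACGTCA in 1.45%. The element also held the short SMAD box GTCT, or AGAC on the other strand, 6 times, against a median of 2 in the central 300 bp of those intervals, and 4.89% of them held as many or more. The promoter held none of the searched words. Over all promoters of the same 250 bp, GGCGCC was found in 11.1%, TGACGTCA in 1.91% and an E box in 26.7%.

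The other 2 vehicle regions of *Id1* were in all lists. The region 49.5 kb upstream, at the start of the retrogene *Mcts2* inside *H13*, was 451 bp wide in the vehicle, 511 bp in the TGFβ and 502 bp in the 10 min list. An intergenic region 5.16 kb downstream of the start site was 648 bp wide in the vehicle and in the TGFβ list and 820 bp wide in the 10 min list. The TGFβ to vehicle width ratios of these regions were 1.13 and 1.00.

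*Id1* had 3 intergenic regions in the TGFβ list that the vehicle list lacked. An upstream region 9.52 kb before the start site was 359 bp wide with a score of 647, and a second 7.67 kb before it was 294 bp wide with a score of 783. The third, between the 3′ ends of *Cox4i2* and *Bcl2l1* and 30.3 kb downstream of the *Id1* start, was 200 bp wide with a score of 807. None of the 3 had a vehicle interval of any width, and all 3 were in the 10 min list, where they measured 639, 290 and 1537 bp. The 1537 bp region was made of 2 deposited intervals, 374 and 181 bp wide, joined across a gap. The interval of 374 bp was the one that overlapped the TGFβ region. Over all genes, 68.0% had at least 1 region in the TGFβ but not the vehicle list, so such regions were common around genes. The central 200 bp of the 3 regions are given to show which words they hold (mm9, plus strand: chr2:152552550-152552749, chr2:152554369-152554568 and chr2:152592289-152592488).
Id1 TGFβ-only, 9.52 kb upstream: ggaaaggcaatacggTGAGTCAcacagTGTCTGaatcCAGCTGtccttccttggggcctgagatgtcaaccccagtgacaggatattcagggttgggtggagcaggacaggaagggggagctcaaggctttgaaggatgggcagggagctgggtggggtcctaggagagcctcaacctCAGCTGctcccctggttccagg
Id1 TGFβ-only, 7.67 kb upstream: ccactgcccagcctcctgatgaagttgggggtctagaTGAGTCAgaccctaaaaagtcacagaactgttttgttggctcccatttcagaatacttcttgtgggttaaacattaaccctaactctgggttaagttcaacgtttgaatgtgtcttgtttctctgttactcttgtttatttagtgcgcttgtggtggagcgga
Id1 TGFβ-only, 30.3 kb downstream: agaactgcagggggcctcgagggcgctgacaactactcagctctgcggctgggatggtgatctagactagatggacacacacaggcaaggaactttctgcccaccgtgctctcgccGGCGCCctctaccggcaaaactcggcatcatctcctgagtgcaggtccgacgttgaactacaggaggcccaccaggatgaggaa
Both upstream regions held an AP-1 word, at 9.42 and 7.58 kb before the start site, and in the first a SMAD word and an E box followed the AP-1 word. The downstream region held GGCGCC. The 10 min list had 2 more regions at *Id1*, 1 of 224 bp at 39.4 kb upstream and 1 of 213 bp at 3.56 kb downstream. At the latter place the TGFβ list held an interval of 85 bp, below the minimum width of 150 bp.

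*Id2* lies on the minus strand of chromosome 12 (ENSMUSG00000020644.8, chr12:25778666-25780957). Its start-site region ran from 440 bp upstream to 82 bp downstream of the start site in the vehicle list, from 258 bp upstream to 127 bp downstream in the TGFβ list and from 432 bp upstream to 312 bp downstream in the 10 min list. The widths were 523, 386 and 745 bp. An intergenic region that begins 2.98 kb upstream was 438 bp wide in the vehicle, 268 bp in the TGFβ and 442 bp in the 10 min list. A region that begins 36.5 kb upstream was 690, 373 and 615 bp wide in the same order, and a region 14.6 kb upstream was 326, 510 and 594 bp wide. So 3 of the 4 regions that *Id2* had in both 2 h lists were narrower with TGFβ, the start-site region included, and the region 14.6 kb upstream was wider. The scores of these 4 regions ran from 603 to 979 in the vehicle list and were all at the cap of 1000 in the TGFβ list.

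The remaining 2 vehicle regions of *Id2* were not in the TGFβ list, where no interval of any width was found at either place. The first was intergenic, beyond the 3′ end of the gene and 3.39 kb downstream of the start site, 374 bp wide with a score of 825, and the 10 min list lacked it too. The second was intergenic at 44.4 kb upstream, 337 bp wide with a score of 702, and the 10 min list held it with a width of 461 bp and a score of 727. A region in the vehicle but not the TGFβ list was present at 16.3% of the genes with a vehicle region, and such regions were 6.44% of all vehicle regions. Among the members they were 2 of 15, or 13.3% (95% interval 3.74 to 37.9). Covered length at *Id2* was 2688 bp in the vehicle, 1537 bp in the TGFβ and 2857 bp in the 10 min list, a TGFβ to vehicle ratio of 0.572. A lower covered length with TGFβ was seen at 10.0% of the genes with a vehicle region, and the median ratio over those genes was 1.54.

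The 250 bp before the *Id2* start site (chr12:25780958-25781207), the shared region 2.98 kb upstream (chr12:25783647-25783914) and the central 300 bp of the 2 vehicle-only regions (chr12:25777235-25777534 and chr12:25825049-25825348) are printed because they are the places where *Id2* differs from the other members or resembles *Id1*. All are mm9 and are written in the direction of *Id2* transcription, on the minus strand.
Id2 promoter: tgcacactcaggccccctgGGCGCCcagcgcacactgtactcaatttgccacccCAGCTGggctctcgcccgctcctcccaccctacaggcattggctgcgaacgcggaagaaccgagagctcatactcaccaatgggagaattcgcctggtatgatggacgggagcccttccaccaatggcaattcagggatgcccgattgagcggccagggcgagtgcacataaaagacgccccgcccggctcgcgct
Id2 upstream, 2.98 kb: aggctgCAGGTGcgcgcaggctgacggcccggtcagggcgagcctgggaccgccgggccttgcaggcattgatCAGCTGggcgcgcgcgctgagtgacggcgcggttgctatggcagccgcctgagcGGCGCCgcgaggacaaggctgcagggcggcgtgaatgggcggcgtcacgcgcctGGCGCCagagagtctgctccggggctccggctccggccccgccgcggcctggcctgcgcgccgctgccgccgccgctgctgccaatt
Id2 vehicle-only, 3.39 kb downstream: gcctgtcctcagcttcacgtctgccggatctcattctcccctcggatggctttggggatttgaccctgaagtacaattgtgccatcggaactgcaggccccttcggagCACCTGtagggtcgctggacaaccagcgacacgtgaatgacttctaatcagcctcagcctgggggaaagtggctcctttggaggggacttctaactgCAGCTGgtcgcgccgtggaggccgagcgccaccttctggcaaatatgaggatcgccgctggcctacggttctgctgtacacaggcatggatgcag
Id2 vehicle-only, 44.4 kb upstream: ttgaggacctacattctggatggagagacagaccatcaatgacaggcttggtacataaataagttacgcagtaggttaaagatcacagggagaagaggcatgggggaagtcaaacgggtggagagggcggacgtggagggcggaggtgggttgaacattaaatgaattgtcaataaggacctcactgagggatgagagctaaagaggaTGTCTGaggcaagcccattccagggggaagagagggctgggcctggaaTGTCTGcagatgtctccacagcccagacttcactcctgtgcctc
The promoter held GGCGCC at 231 bp and an E box at 196 bp before the start site. The upstream region held GGCGCC at 2830 and 2776 bp and E boxes at 2951 and 2884 bp. The vehicle-only region downstream held 2 E boxes and no AP-1 or SMAD word, and the vehicle-only region upstream held the SMAD word, read as TGTCTG on this strand, 2 times.

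**Figure D4:**
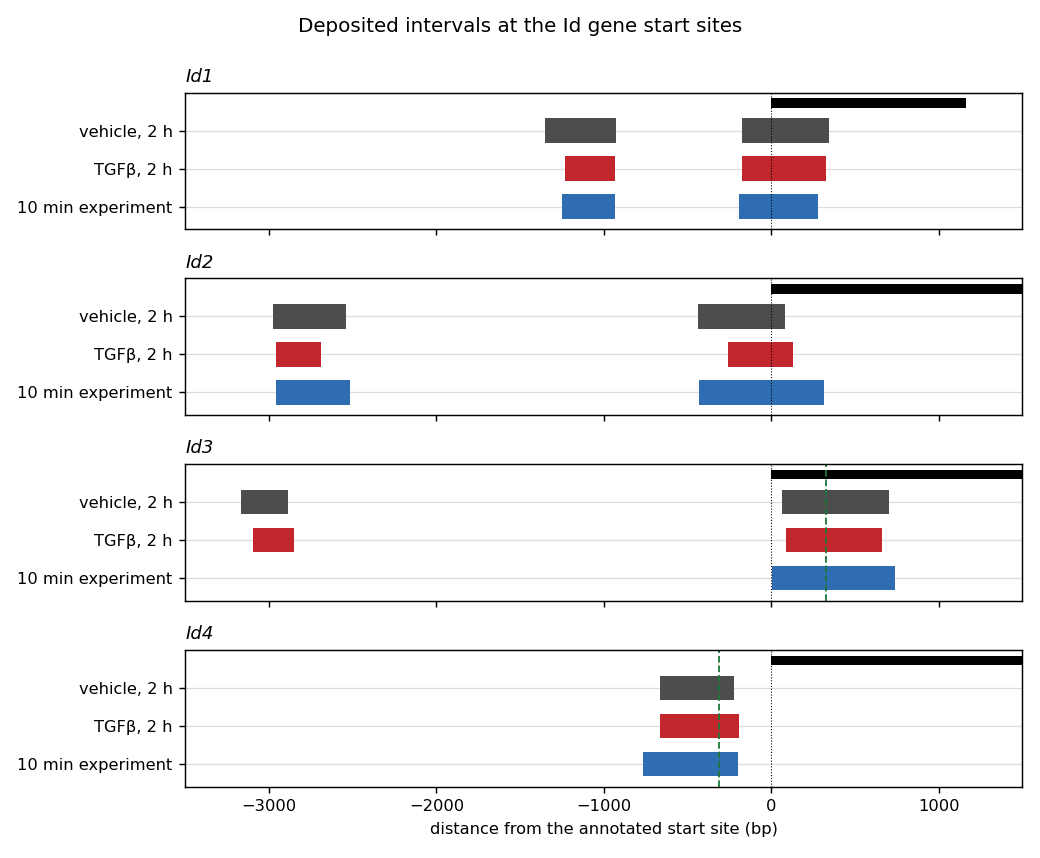
Deposited intervals of at least 150 bp at the start sites of the 4 members, against the distance in bp from the first annotated start site (dotted line; black bar, the gene; dashed green line, the RefSeq start where it lies elsewhere), for the vehicle, TGFβ and 10 min lists. *Id1* has a promoter and an upstream interval in each list, and the *Id2* intervals near the start site and 2.98 kb upstream are narrower in the TGFβ than in the vehicle list (386 against 523 bp and 268 against 438 bp).

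The upstream intervals of *Id1* and *Id2* and a region of *Id4* held a stretch of similar sequence. Starting at the TGACGTCA of *Id1*, 31 bases were compared without gaps with every region of each list on both strands; the stretch was chosen after the sequences had been seen. The best match at *Id2* lay in the region 2.98 kb upstream, at 2791 bp before the start site, and 23 of 31 letters were the same. At *Id4* it lay in a region 33.7 kb upstream, at 33533 bp before the start site, with 21 of 31 letters the same. The coordinates in mm9 are chr2:152560927-152560957 (plus strand), chr12:25783718-25783748 (minus strand) and chr13:48323263-48323293 (plus strand), and capitals mark the 17 letters that the 3 genes share.
Id1 stretch: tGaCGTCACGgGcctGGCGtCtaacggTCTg
Id2 stretch: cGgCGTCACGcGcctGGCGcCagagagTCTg
Id4 stretch: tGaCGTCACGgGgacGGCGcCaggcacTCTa
Of the 38532 TGFβ regions, 3 held a stretch with at least 23 letters the same, *Id1* and *Id2* among them, and 29, or 0.0753%, held one with at least 21. The *Id4* region and the *Id1* upstream element also had an unbroken word of 20 letters in common, and among the 38531 other TGFβ regions the *Id4* region was the 1 that shared a word of this length with the *Id1* element. At *Id3* the best match had 18 letters the same, which 9.54% of the TGFβ regions reached, so no such stretch stood out there. The 3 regions with the stretch were in all 3 lists.

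*Id3* lies on chromosome 4 (ENSMUSG00000007872.3, chr4:135699412-135701670, plus strand) and had 3 annotated start sites. Its start-site region was 638 bp wide in the vehicle, 572 bp in the TGFβ and 733 bp in the 10 min list, with scores of 938, 1000 and 1000. It began 65, 88 and 4 bp downstream of the first annotated start site and in each list covered the RefSeq start, 325 bp further downstream. A region that begins 3.17 kb upstream was 280 bp wide with vehicle and 251 bp wide with TGFβ, and was not in the 10 min list. Another, 26.4 kb upstream, was 317, 445 and 536 bp wide in the vehicle, TGFβ and 10 min lists. A region inside the neighbouring gene *E2f2*, a cell-cycle transcription factor, 43.4 kb downstream of the *Id3* start, was 524, 304 and 570 bp wide. All 4 vehicle regions were thus in the TGFβ list too, 3 of them narrower.

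*Id3* had 3 regions in the TGFβ but not the vehicle list. An intergenic region 32.9 kb upstream was 271 bp wide with a score of 868, and a region in an intron of *E2f2*, 41.9 kb downstream, was 330 bp wide with a score of 857. Neither was in the 10 min list. The third lay at the start site of *E2f2*, 28.6 kb downstream, 609 bp wide with a score of 674, and the 10 min list held it at 834 bp. The *Id3* window thus takes in the promoter of its neighbour, and *E2f2* had a start-site region in the TGFβ and 10 min lists and none in the vehicle list. The central 200 bp of the first 2 are printed (mm9, plus strand: chr4:135666507-135666706 and chr4:135741355-135741554) because each holds an AP-1 word, and the region at *E2f2* is not, since it overlaps an untranslated region.
Id3 TGFβ-only, 32.9 kb upstream: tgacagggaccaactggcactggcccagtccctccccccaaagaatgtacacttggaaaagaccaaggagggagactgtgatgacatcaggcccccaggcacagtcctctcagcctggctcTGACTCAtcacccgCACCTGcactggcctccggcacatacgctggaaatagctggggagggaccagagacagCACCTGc
Id3 TGFβ-only, 41.9 kb downstream: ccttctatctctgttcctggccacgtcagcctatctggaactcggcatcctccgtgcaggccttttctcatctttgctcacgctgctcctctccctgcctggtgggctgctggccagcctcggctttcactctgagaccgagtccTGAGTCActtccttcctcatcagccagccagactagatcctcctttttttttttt
The upstream region also held 2 E boxes, and neither held a SMAD word in the bases printed. In the 10 min list 2 more regions lay in the window, 745 bp wide at 20.6 kb upstream and 216 bp wide at 20.1 kb downstream. At the former the TGFβ list held an interval of 142 bp, below the minimum width.

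*Id4* lies on chromosome 13 (ENSMUSG00000021379.1, chr13:48356796-48359405, plus strand) and had the fewest regions of the family. Its start-site region ended 221 bp upstream of the annotated start site in the vehicle, 194 bp in the TGFβ and 201 bp in the 10 min list, and covered the RefSeq start, 311 bp upstream, in all 3. It was 447, 472 and 568 bp wide, with scores of 1000, 1000 and 976, and lies in an intron of the long noncoding RNA gene *A330033J07Rik*, within 1000 bp of a start site of that gene as well. The region 33.7 kb upstream, in the same gene, was 375 bp wide with vehicle, 368 bp with TGFβ and 661 bp in the 10 min list, each with a score of 1000. A region 23.9 kb upstream was 720 bp wide with a score of 564 in the TGFβ list and 355 bp wide with a score of 599 in the 10 min list, and the vehicle list held no interval there. *Id4* thus had both vehicle regions in the TGFβ list, with width ratios of 0.981 and 1.06, and 1 further region with a score of 564 there.

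The *Id4* promoter is given as the 250 bp before the RefSeq start (chr13:48356235-48356484), with the central 300 bp of the region 33.7 kb upstream (chr13:48323131-48323430) and the central 200 bp of the TGFβ-only region (chr13:48333130-48333329), all mm9 and plus strand, so that the 3 kinds of region can be compared.
Id4 promoter: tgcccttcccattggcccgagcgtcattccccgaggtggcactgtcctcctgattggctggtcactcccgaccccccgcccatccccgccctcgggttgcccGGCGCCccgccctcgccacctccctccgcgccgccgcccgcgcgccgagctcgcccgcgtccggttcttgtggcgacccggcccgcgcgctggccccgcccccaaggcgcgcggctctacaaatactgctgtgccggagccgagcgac
Id4 upstream, 33.7 kb: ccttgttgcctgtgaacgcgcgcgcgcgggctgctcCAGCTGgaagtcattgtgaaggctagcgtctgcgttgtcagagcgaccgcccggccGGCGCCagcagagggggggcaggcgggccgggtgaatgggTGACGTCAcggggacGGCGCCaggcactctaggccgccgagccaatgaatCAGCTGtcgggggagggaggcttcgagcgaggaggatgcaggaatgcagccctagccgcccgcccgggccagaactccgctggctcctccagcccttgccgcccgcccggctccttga
Id4 TGFβ-only, 23.9 kb upstream: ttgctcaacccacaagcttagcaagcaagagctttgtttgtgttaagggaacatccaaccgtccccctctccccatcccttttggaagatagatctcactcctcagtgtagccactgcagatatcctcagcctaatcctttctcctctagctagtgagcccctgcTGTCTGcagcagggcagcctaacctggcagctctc
The promoter held 1 GGCGCC. The 250 bp before the annotated start site, the definition used for *Id1*, *Id2* and all promoters, held none of the searched words at *Id4*. The region 33.7 kb upstream held GGCGCC at 33573 and 33518 bp before the start site on either side of TGACGTCA at 33533 bp, and 2 E boxes. The TGFβ-only region held the SMAD word in the bases printed, and outside them, within 200 bp of its centre, it held GGCGCC.

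In all, the TGFβ list held 7 member regions that the vehicle list lacked, 3 at *Id1*, 3 at *Id3*, 1 at *Id4* and none at *Id2*. They were 7 of the 20 TGFβ regions, or 35.0% (18.1 to 56.7), against 52.4% of all TGFβ regions. Of these 7, 5 were also in the 10 min list, or 71.4% (35.9 to 91.8), against 31.5% of all TGFβ-only regions. With peaks at or above the median score of each list, 4 regions were TGFβ-only and 1 of them was in the 10 min list. None of the 7 was among these 4, since their scores lay below the TGFβ median of 914. The 4 were regions shared in the full lists whose vehicle score lay below the vehicle median of 889. With the lists at equal length no TGFβ-only region was left. The 7 regions were 200 to 720 bp wide (median 330 bp) with scores from 564 to 868 (median 783), beside medians of 281 bp and 742 over all TGFβ-only regions, and none was at the cap of 1000, which 13.9% of all TGFβ-only regions reached. Of the 13 member regions in both 2 h lists, 9 were at the cap in the TGFβ list, or 69.2%, against 71.6% of all shared TGFβ regions. Counted over all lists the members had 26 places with a region, and 12 of them, or 46.2%, were in all 3 lists, against 38.9% of the 42895 places over all chromosomes. The 10 min list alone had 4 of the 26 (7.6% of all places), the TGFβ list alone 2 (32.2%) and the vehicle list alone 1 (1.64%).

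Of the 13 pairs of Id gene regions shared by both 2 h lists, 8 were narrower with TGFβ, 3 each at *Id2* and *Id3* and 1 each at *Id1* and *Id4*. Ratios close to 1 were among them, 0.981 at *Id4*, 0.916 at *Id1*, and 0.897 and 0.896 at *Id3*. The *Id1* pair is the start-site region, whose width includes the gap between its intervals. Over all 18268 shared pairs 33.4% were narrower and the median width ratio of TGFβ to vehicle was 1.11. The median ratio was 1.00 at *Id1*, 0.675 at *Id2*, 0.896 at *Id3* and 1.02 at *Id4*. A TGFβ width of at most 0.8 times the vehicle width was found in 4 of the 13 pairs, 3 at *Id2* and 1 at *Id3*, and in 12.7% of all pairs. With the regions of a single list included, covered length was 2044 bp with vehicle and 2814 bp with TGFβ at *Id1*, 1759 and 2633 bp at *Id3*, and 822 and 1560 bp at *Id4*. Over the 4 members it was 7313 and 8544 bp, a ratio of 1.17, and this ratio was below 1 in 3 of the alternatives tried: 0.967 with a minimum width of 300 bp, 0.988 with windows of 20 kb and 0.662 with the lists at equal length.

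**Figure D5:**
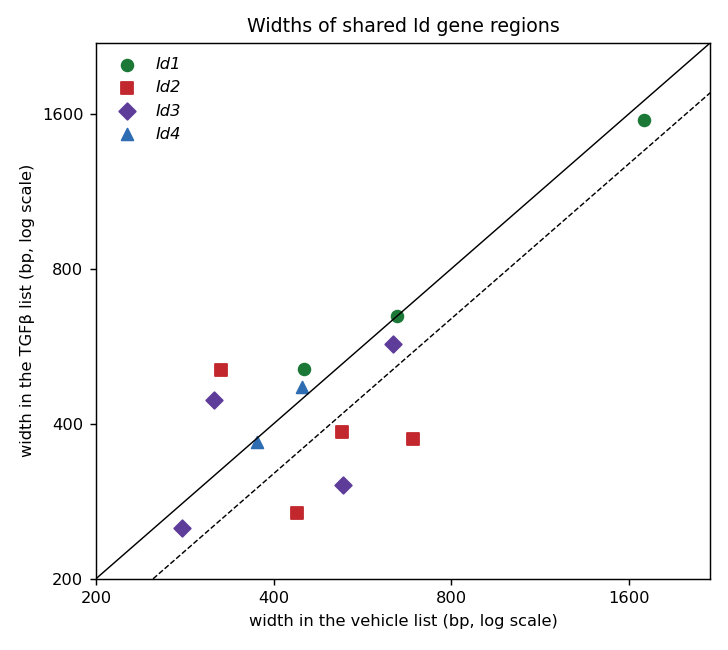
Width in bp in the vehicle list (x axis, log scale) and the TGFβ list (y axis, log scale) of the 13 Id gene regions found in both, 1 point per region; the solid line marks equal width and the dashed line 0.8 times the vehicle width. Below the dashed line lie 3 *Id2* regions and 1 *Id3* region.

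Within 200 bp of their centres, 9 of the 20 member regions in the TGFβ list held an AP-1 word, or 45.0% (25.8 to 65.8), against 32.1% of all TGFβ regions. Centres were those of merged regions, and at the *Id1* start-site region the centre fell in the gap between its 2 intervals in each list. The AP-1 word and E box counted for that region thus lay outside the deposited intervals. Its GGCGCC and TGACGTCA, which lay in the upstream interval, were not counted. The SMAD word was found in 4 of 20 (8.07% to 41.6%), against 35.0%, and within 500 bp of the centre in 10 of 20, against 62.2%. For GGCGCC the count was 7 of 20, or 35.0% (18.1 to 56.7), against 10.6%, and for the E box 12 of 20 (38.7% to 78.1%), against 40.7%. All 3 *Id4* regions were among the 7 with GGCGCC. Of all TGFβ-only regions 4.81% held GGCGCC, and of the TGFβ-only member regions 2 of 7 did, or 28.6%. TGFβ-only regions were 52.4% of all TGFβ regions but 35.0% of the member regions. What part of the GGCGCC difference comes from this mix was not tested. In the vehicle list GGCGCC was found in 5 of 15 member regions and 16.6% of all regions, and in the 10 min list in 5 of 22 and 14.7%. The E box was found in 11 of 15 member regions of the vehicle list, or 73.3% (48.0 to 89.1), against 40.2%, and in 11 of 22 of the 10 min list against 42.3%. AP-1 words lay in 4 of the 7 TGFβ-only member regions, 2 each at *Id1* and *Id3*, and in 36.8% of all TGFβ-only regions. Over 6 words in 3 lists, the share of all regions lay outside the interval of the member regions for GGCGCC in the TGFβ list and for the E box in the vehicle list, and inside it for the other combinations. The lists share many member regions, so these combinations are not independent, and the intervals are no test.

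The genes that act around the Id proteins were listed by role, 48 in all, to set the members beside them. The E proteins that Id proteins bind, *Tcf3*, *Tcf4* and *Tcf12*, had start-site regions in all 3 lists, 3 of 3, and 3, 6 and 3 more window regions with TGFβ than with vehicle. Of the other helix-loop-helix genes, 5 of 12 had a start-site region with vehicle and 7 with TGFβ, the further ones being *Twist2* and *Bhlhe41*. *Hes1*, a Notch-driven repressor, had 4 vehicle and 10 TGFβ window regions, and *Bhlhe40* had 3 and 10. Among BMP ligands 1 of 7 had a start-site region in each list, *Bmp7* with vehicle and TGFβ and *Bmp2* in the 10 min list. Of the type I and II receptors for BMPs 5 of 7 had one in every list, *Bmpr1a*, *Bmpr2*, *Acvr1*, *Acvr2a* and *Acvr2b*, and 3 of 4 BMP Smads did, *Smad1*, *Smad5* and *Smad4*.

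BMP antagonists and inhibitors had a start-site region at 5 of 9 genes with vehicle, 6 with TGFβ and 7 in the 10 min list, with *Fst*, which encodes the activin and BMP antagonist follistatin, listed with TGFβ and not with vehicle. The group of *Atf3* and TGFβ feedback genes had one at 6 of 6 in every list. *Atf3*, the repressor that acts with SMAD3 at *Id1*, had 3 vehicle and 7 TGFβ window regions, *Skil* had 6 and 8, and *Pmepa1* had 5 and 10. Of the 48 genes, 35 had more window regions with TGFβ, 13 as many and 0 fewer. Over all genes with a vehicle region, as 42 of the 48 had, 76.8% had more and 2.72% had fewer. With so low a share of genes with fewer, the 0 does not set these genes apart from all genes. Vehicle-only regions were present at 7 of the 42 that had a vehicle region, against 16.3% of all such genes.

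Genes with a pattern most like that of each member were looked for among 22234 genes over 1 Mb away, by the summed absolute difference in start-site and distal region counts over the 3 lists and then by covered length. Only *Imp3* and *Accs* had the counts of *Id1*. For *Id2* no gene had the same counts, and 22 genes, *Map4k1* among them, differed by 1 region. The counts of *Id3* were met by 38 genes and those of *Id4* by 190, with *Ugt1a6b* and *Daam1* closest to *Id3* and *Med12* and *Slc29a3* closest to *Id4*.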

How the data were processed

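The 4 samples (1 per group) were measured by ATAC-seq. According to the study's methods and the processing notes of the submitters, reads went through the ENCODE ATAC-seq pipeline on mm9, and peaks were called with MACS2 2.1.2 and kept by the irreproducible discovery rate. A separate Tn5 shift for peak calls is not given in the sources used here. The score deposited by the authors ran from 540 to 1000 and is that rate, scaled. The methods speak of replicates, the labels give 1 sample per condition, so the runs behind the rate are not known. The lists carry no depth. Read totals that the study states for its libraries, slightly lower for TGFβ than for vehicle at 2 h, were not used here.

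Intervals under 150 bp were discarded, gaps under 1000 bp were merged, and regions of 2 lists counted as shared from 1 bp of overlap. All intervals lay inside the NCBIM37 chromosomes, whose sequence was used. Promoters of *Id2*, *Id3* and *Id4* were also placed by RefSeq sequence (GRCm38.p6) found in mm9. Python 3.11.15, numpy 2.4.6, scipy 1.17.1 and matplotlib 3.10.9 were used, and the counting code was tested on simulated lists. All 4 members were described with every region. From each list of related genes those with a start-site region in 1 of the 2 h lists were named, and other named genes were chosen after their values were seen. A gene with a pattern like that of *Id2* is not reported here. The members and lists were chosen with earlier results of these data known.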

Additional observations from a re-analysis of the deposited data

How the results depend on the processing

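Of 113 alternative values for 19 results, 64 stayed near the value reported, 42 moved and 7 reversed. The number of members with a start-site region stayed at 3 or 4 of 4 in every list and setting tried. No paired analysis was possible because no group held a replicate, and for the same reason none was left out.

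Without a width minimum or merging, 11 regions were TGFβ-only and 9 of these in the 10 min list. With a minimum of 300 bp these counts were 3 and 2, and the covered length ratio reversed to 0.967. With peaks at or above the median score of each list the vehicle, TGFβ and 10 min lists held 7, 10 and 9 regions, of which 4 were TGFβ-only, 1 vehicle-only and 1 TGFβ-only and in the 10 min list, and the difference between TGFβ and vehicle reversed to 3 at *Id2* and -1 at *Id1*. By construction this setting drops 5 of the 6 *Id2* vehicle regions, whose scores lay below the vehicle median of 889. It also drops all 7 TGFβ-only regions of the full lists, whose scores lay below the TGFβ median of 914, so the 4 are other regions. With the TGFβ and 10 min lists shortened by score to the length of the vehicle list they held 10 and 13 regions, 0 were TGFβ-only, so 0 were also in the 10 min list, and 5 were vehicle-only. The covered length ratio reversed to 0.662, and the difference reversed to -1 at *Id1* and -2 at *Id3*, where by construction TGFβ intervals alone were removed from the comparison with vehicle. At *Id2* the difference stayed at -2 by construction, since its TGFβ regions were all at the score cap and could not be removed.

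Windows of 20 kb held 9, 10 and 12 regions, 2 TGFβ-only (2 of them in the 10 min list) and 1 vehicle-only, with a ratio reversed to 0.988, a difference of -1 at *Id2* and AP-1 words in 5 TGFβ regions. Windows of 100 kb held 26, 34 and 34 regions, 12 TGFβ-only and 4 vehicle-only. Within 500 bp of the centre the SMAD word was found in 10 of the 20 TGFβ regions, against 62.2% of all TGFβ regions, and within 200 bp in 4. Alternatives for the difference at each member were added after the data were seen. Over all 37252 annotated genes 27.5% had a start-site region with vehicle, 32.6% with TGFβ and 31.4% in the 10 min experiment. Where no construction is named, the cause was not tested.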
